A study of Bos taurus with 12 samples.

Results

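TLR3, TLR4 and TRAF6 are 3 genes of the Toll-like receptor pathway, and they held 57 of the 196275 CpG cytosines (sites) that the authors listed as differently methylated between 2 groups of dairy cows. The members are all rows of the deposited tables that carry one of the 3 symbols. TLR4 had 28 sites, TRAF6 15 and TLR3 14. None of the 1227 windows of 500 bases (tiles) listed by the authors carried a member's symbol, so every value here is of a single cytosine.

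Blood was taken from cows kept under the same farm conditions, and methylation was read after enzymatic conversion of genomic DNA. The Mastitis Susceptible Group (MSG, 6 cows) was culled within a year because of complications of mastitis, an infection or inflammation of the udder, that was not identified at sampling. The Mastitis Resilient Group (MRG, 6 cows) was still in the herd a year later and had a similar age distribution. The labels name no treatment, and ages, breed and blood cell counts are not given in the sources used here. Blood is a mixture of cell types, so a change of methylation within a cell type and a change in the share of that cell type cannot be told apart. Cow numbers follow the sample records within each group and pair no cows.

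Toll-like receptors sense parts of microbes. TLR4, at the cell surface of monocytes and neutrophils, binds lipopolysaccharide of Gram-negative bacteria together with LY96 and CD14, and such bacteria are a known cause of mastitis. TLR3 lies in endosomes, binds double-stranded RNA and signals through the adaptor TICAM1. TRAF6 is a ubiquitin ligase further down the path: it is recruited through MYD88 and the IRAK kinases and activates MAP3K7, which switches on NF-kappaB.

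At 43 of the 57 sites methylation was higher in MSG and at 14 it was lower, a share of 75.4% higher against 52.7% of all listed sites. The authors chose these rows for their difference, so the directions and sizes are descriptions. Sites less than 1 kb apart were also joined into runs. Higher in MSG were 8 of 11 runs of TLR3, 10 of 16 of TLR4 and 6 of 8 of TRAF6. The share of runs over all listed sites was not counted, and the 52.7% is per site. The difference of cow means was 21.2 to 58.8 percentage points in size, with a median of 35.9 against 32.7 over all listed sites. The SD between cows of one group had a median of 28.7 points, against 27.7 over all listed sites. Nothing in the labels ties cows to a batch, and the p-values take these 12 cows as their units. limma's SE and p at a site draw on the spread of the cows there and on a variance pooled over all listed sites. An SE therefore does not follow from the SDs printed beside it. Of the 57 sites, 0 passed limma's test with adjustment over all listed sites (background 0%), and their adjusted p ran from 0.0781 to 0.198. An unadjusted limma p under 0.05 was reached by 32 of them (56.1%, background 51.9%), 18 of TLR4, 9 of TRAF6 and 5 of TLR3. With 1 cow left out, that count ran from 18 (without MSG cow 4) to 43 (without MSG cow 1). The share over all listed sites was not counted in these settings, so this range cannot be read as particular to these genes. The exact permutation test passed 0 sites after adjustment, and 25 had an unadjusted p under 0.05 (43.9%, background 35.5%).

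Of all cow values at the member sites, 25.8% were exactly 0, against 21.7% over all listed sites. A value of 0 in 1 or more cows was listed at 52 sites (91.2%, against 78.3% of all listed sites). Averaged over all listed sites, the cows ranged from 51.8% to 55.1%, and 0.309% to 4.46% of a cow's values were missing. No promoter or exon held a member site. Introns held 16 and distal intergenic sequence held 41. The map of percent methylation by cow shows the sites of each gene in order.

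**Figure D1:**
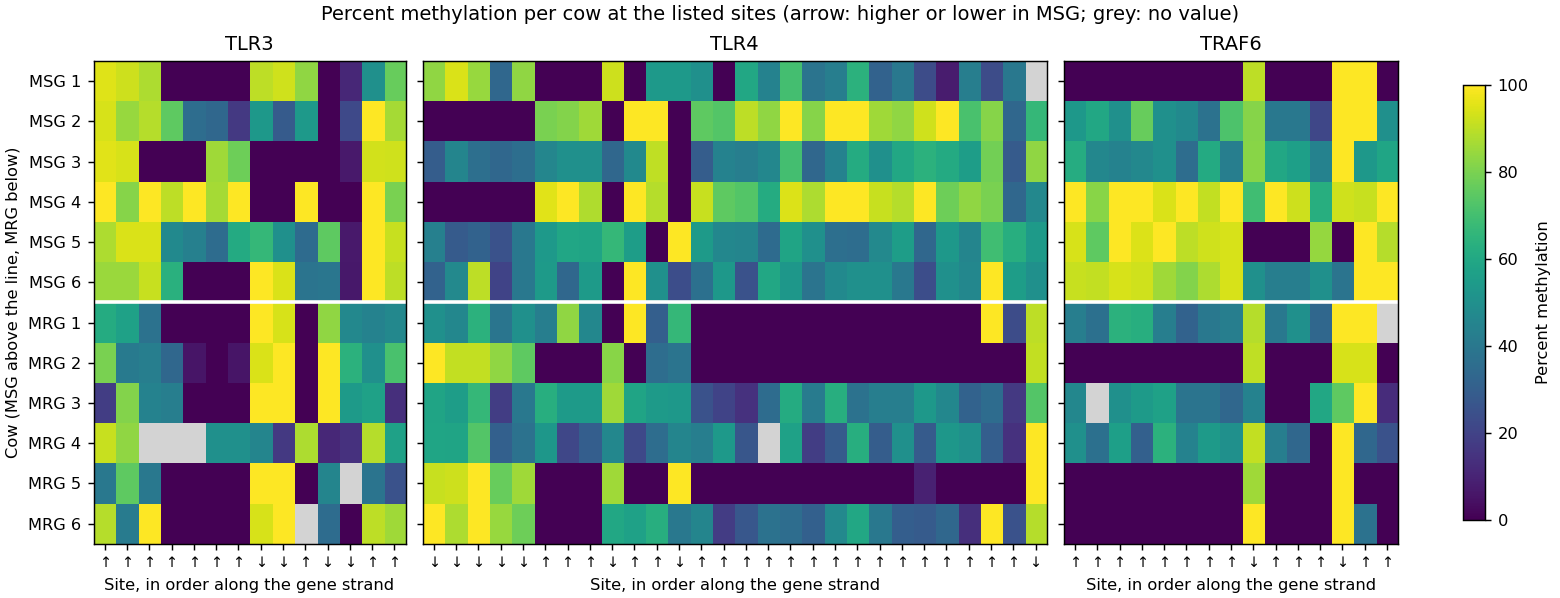
Percent methylation of each cow (rows, 6 MSG cows above the white line and 6 MRG cows below) at each listed site (columns, in order along the gene's strand) of TLR3, TLR4 and TRAF6. Arrows under the columns give the direction in MSG, 43 up and 14 down. Dark cells at 0 run on in the same cows through some stretches, such as 8 sites upstream of TRAF6. Elsewhere the cows at 0 change between neighbouring sites.

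TLR4, the lipopolysaccharide receptor, lies on chromosome 8 (107057826 to 107068836, plus strand, ARS-UCD1.2), a gene model of 11 kb. Its 28 sites covered 22 CpGs and 488 kb. Only 1 of them was inside the gene, 9 lay before its start and 18 beyond its end. Of the 28, 20 were higher in MSG (71.4%) and 8 lower. Beyond the end 16 of the 18 sites were higher, 13 of them in 1 stretch of 10520 bases with the same cows low throughout, and before the start 3 of the 9 were higher and 6 lower. With each run of sites less than 1 kb apart counted once, 10 of 16 runs were higher (62.5%). Averaged over all 28 sites, the level was 52.0% ± 8.65 among MSG cows and 36.3% ± 10.5 among MRG cows (SD, n = 6 each). The MSG cows ran from 42.9% to 63.1% (median 48.1%) and the MRG cows from 24.6% to 47.5% (median 36.3%), so the groups overlapped. The mean of the site differences, 16.0 points, was 6.87 points when taken over the 16 runs and -0.183 points over the 4 sites within 50 kb of the start, 2 higher and 2 lower.

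The site inside TLR4 (107062912, minus strand, in the first intron, 5.09 kb from the start) varied across the whole scale in both groups. MSG cows ran from 0% over a median of 77.8% to 100%, and MRG cows from 0% over 39.7% to 100%. The means were 67.2% ± 40.7 and 39.6% ± 39.4 (SD, n = 6 each), a difference of 27.6 points with an SE of 17.2 (limma adjusted p = 0.133). MSG cow 1 and MRG cows 2 and 5 were at 0 there.

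Before the start of TLR4, 3 sites between 80.8 and 78.4 kb upstream (106977010 to 106979423) were lower in MSG. Their mean ran from 0% over a median of 35.8% to 87.5% in MSG cows and from 53.5% over 78.7% to 95.8% in MRG cows. MSG cows 2 and 4 were at exactly 0 at all 3 sites, and MSG cow 1 was the highest of its group. The site at 106977010 stood at 31.3% ± 31.0 in MSG and 76.5% ± 23.2 in MRG (difference of -45.17 points, SE 16.1, limma adjusted p = 0.0815). The site at 106979423 stood at 40.4% ± 39.4 and 82.5% ± 16.4 (-42.16 points, SE 16.3, limma adjusted p = 0.0835).

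At 68.4 kb before the start, CpGs only 63 bases apart went in opposite directions. At 106989455 methylation was lower in MSG, and at 106989518, on either strand, it was higher. MSG cows 2 and 4, at 0 at the first CpG, stood at 80.0% and 95.7% on the plus strand of the second. MRG cows 2, 5 and 6 were at 0 at the second on both strands, and at the first they stood at 75.0%, 85.7% and 77.8%.

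The largest group of TLR4 sites lay 184 to 194 kb beyond the start (107241370 to 107251889). It held 13 sites of 9 CpGs within 10520 bases, and all 13 were higher in MSG. The mean over the 13 sites ran from 39.6% over a median of 48.4% to 87.4% in MSG cows and from 0% over 17.5% to 41.8% in MRG cows. MRG cows 1 and 2 were at exactly 0 at all 13 sites and MRG cow 5 at 12 of 13. MSG cows 2 and 4 averaged 87.4% and 86.6%, and the other 7 cows lay between 34.4% and 51.0%. The groups overlapped only in that MRG cow 4, at 41.8%, was above MSG cow 1, at 39.6%. The group means were 59.1% ± 21.9 and 19.4% ± 21.1 (SD, n = 6 each). The 2 sites with the largest upward differences of TLR4 were in this group. At 107244075 the means were 74.3% ± 19.1 and 25.7% ± 29.5 (difference 48.6 points, SE 15.9, limma adjusted p = 0.0792). At 107242037 they were 56.1% ± 23.3 and 11.4% ± 13.3 (44.7 points, SE 15.5, limma adjusted p = 0.0805).

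At 1 of the 57 sites the cows of the groups did not overlap (1.75%, background 2.36%). It lies 226 kb beyond the start of TLR4 (107283685, plus strand). MSG cows ran from 28.6% over a median of 36.7% to 62.5% and MRG cows from 0% over 15.5% to 25%. The difference was 29.0 points (SE 15.2). Its limma adjusted p was 0.101. Its unadjusted exact permutation p of 0.00216 is the smallest that 6 cows against 6 can give. Every site where 6 cows do not overlap with 6 has this p, so it adds nothing to the separation. The most distant site (107464779, 407 kb) was also the only TLR4 site with no cow at 0, and was lower in MSG, at 60.2% ± 15 (n = 5) against 90.5% ± 9.78 (n = 6).

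**Figure D2:**
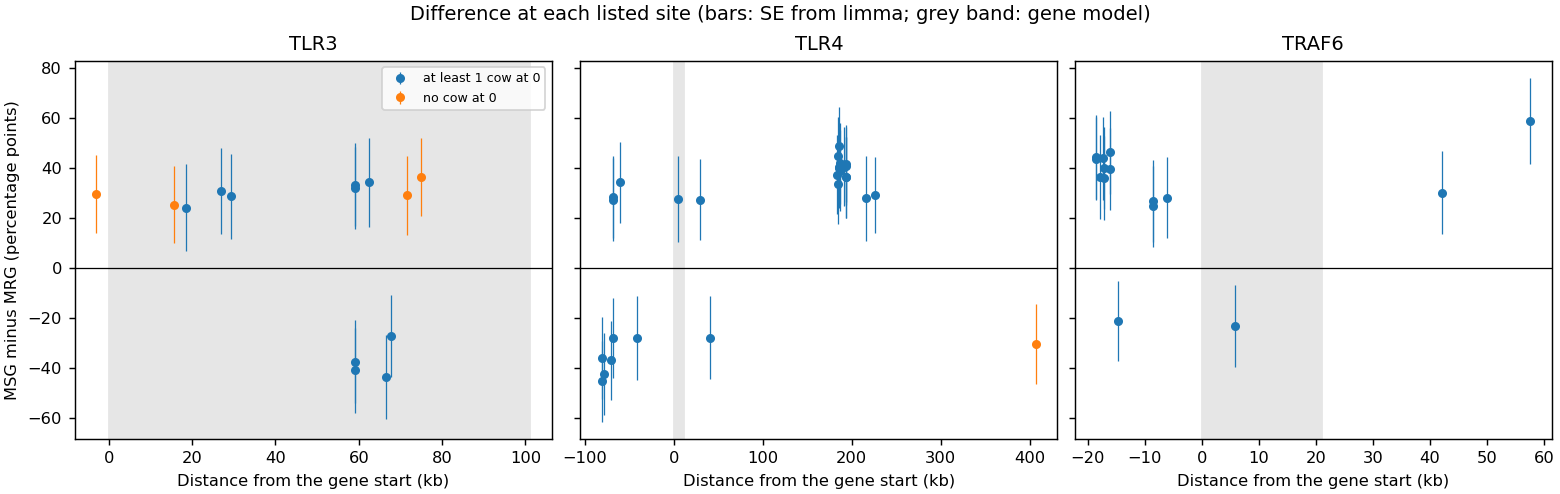
Difference of cow means, MSG minus MRG in percentage points, at each listed site against its distance from the gene's start in kb, with bars for limma's SE and a grey band for the gene model (for TLR3 the longer model). TLR3 sites lie almost all inside the band, 27 of 28 TLR4 sites lie outside it, and the SEs run from 15.2 to 17.7 points.

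TRAF6, the ubiquitin ligase, lies on the minus strand of chromosome 15 (66946444 to 66967540, 21.1 kb). Of its 15 sites of 12 CpGs, 13 were higher in MSG (86.7%) and 2 lower. By runs of sites less than 1 kb apart, 6 of 8 were higher (75%). Before the start lay 12 sites, inside the gene 1 and beyond its end 2. The average over all 15 sites was 61.6% ± 24.4 among MSG cows and 32.2% ± 18.7 among MRG cows (SD, n = 6 each). The MSG cows ran from 19.3% to 91.8% (median 63.2%) and the MRG cows from 12.4% to 55.4% (median 31.1%).

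Upstream of TRAF6, 8 sites of 5 CpGs within 2476 bases (66983579 to 66986054, 16.0 to 18.5 kb before the start) were all higher in MSG. The cows stood at separate levels over these 8 sites. MSG cow 1 and MRG cows 2, 5 and 6 were at exactly 0 at every one of them. MSG cows 2 and 3 and MRG cows 1, 3 and 4 averaged 45.4% to 55.9%, and MSG cows 4, 5 and 6 averaged 89.7% to 96.0%. The group means were 63.8% ± 37.1 and 23.2% ± 25.4 (SD, n = 6 each), and the groups overlapped through MSG cow 1 alone, since the highest MRG cow (48.4%) was just under MSG cow 3 (48.7%). The site at 66983579 had the largest difference among the 8, at 67.2% ± 39.1 against 21.0% ± 23.6 (46.2 points, SE 16.5, limma adjusted p = 0.0815).

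The widest difference of all 57 sites was at 66910044, annotated to TRAF6 but lying 57.5 kb from its start, in the last intron of PRR5L. MSG cows ran from 0% over a median of 73.9% to 100%, and MRG cows from 0% over 0% to 25%. The means were 66.3% ± 38.7 (n = 6) and 7.50% ± 11.2 (n = 5). The difference of 58.8 points (SE 17.0) had a limma p of 0.000931 and an adjusted p of 0.0781.

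The only site inside TRAF6 (66961735, in the first intron, 5.80 kb from the start) was lower in MSG. MSG cows ran from 0% over a median of 96.4% to 100%, and MRG cows from 75.0% over 100% to 100%. The means were 71.9% ± 42.7 and 94.8% ± 10 (-22.91 points, SE 16.4, limma adjusted p = 0.175), and without MSG cow 5, which was at 0, the difference was -8.53 points. In the authors' deposited table the difference at this site is -36.15 points. The other lower site (66982280, 14.7 kb before the start) stood at 62.2% ± 33.6 and 83.4% ± 19.7 (-21.17 points, SE 16.1, limma adjusted p = 0.198), and at -8.73 points without MSG cow 5.

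The listed sites upstream of TRAF6 ran on into those annotated to RAG1, a recombinase gene of lymphocyte receptor assembly, whose nearest site was 3.24 kb away. By a rule that compared 3618 genes with at least 10 listed sites, RAG1 was also the gene most like TRAF6 in its mean over sites across the 12 cows (Pearson r = 0.934). Of its 19 sites 18 were higher in MSG, and its cows ran from 4.78% over 61.8% to 89.8% in MSG and from 4.89% over 21.9% to 45.3% in MRG. The next genes were on other chromosomes, GALNT17 (r = 0.841) and LOC107131273 (r = 0.835).

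**Figure D3:**
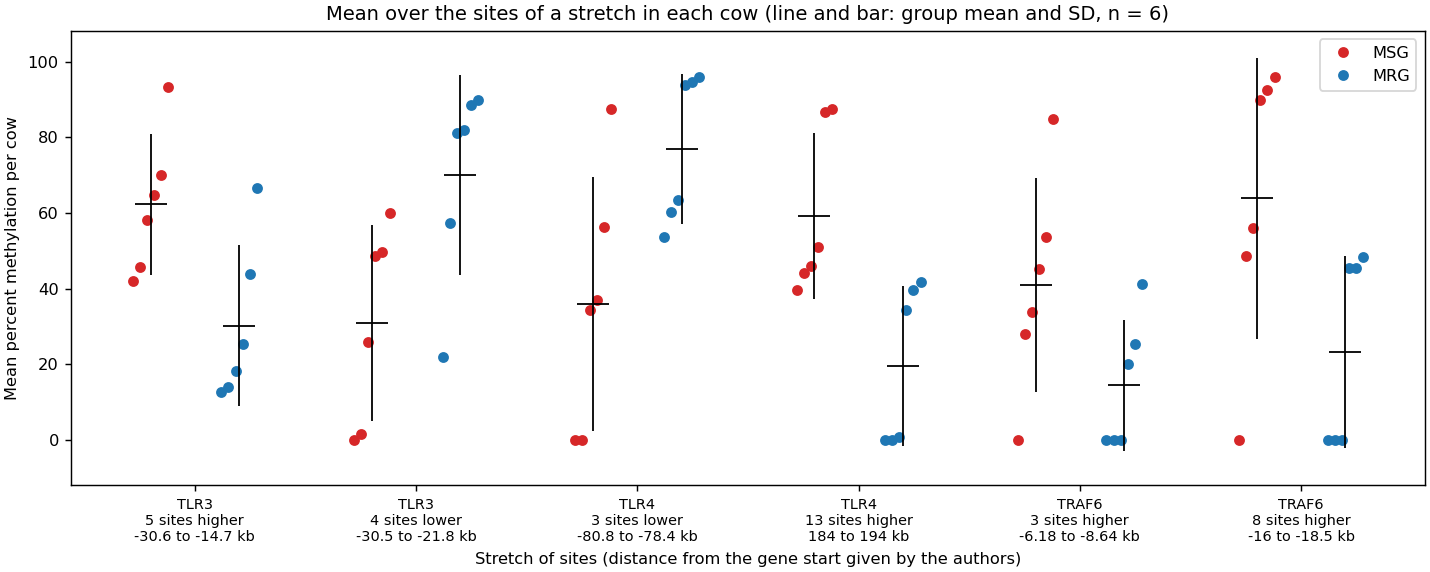
Mean percent methylation of each cow over the sites of one direction in a stretch of sites less than 5 kb apart, for stretches with at least 3 such sites (red MSG, blue MRG, black line and bar the group mean and SD, n = 6 each). Over the 8 upstream TRAF6 sites the cows sit at 0, at 45.4% to 55.9% and at 89.7% to 96.0%, and in all 6 stretches the groups overlap.

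TLR3, the receptor for double-stranded RNA, lies on the plus strand of chromosome 27. The deposited annotation used 2 transcript models, one of 101 kb (16085880 to 16186996) and one of 11.7 kb (16175526 to 16187248). Of the 14 sites, 13 lay in the first intron of the longer model, although 9 of these carry a distance to the start of the shorter one. The last lay 3.01 kb before the start of the longer model. Methylation was higher in MSG at 10 sites (71.4%) and lower at 4. The average over all 14 sites was 55.0% ± 10.2 among MSG cows and 45.4% ± 6.66 among MRG cows (SD, n = 6 each), with ranges of 39.0% to 67.0% (median 55.9%) and 35.7% to 54.2% (median 46.3%).

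TLR3 held 4 of the 5 member sites at which no cow was at 0, and all 4 were higher in MSG. At 16160825 MSG cows ran from 76.9% over a median of 88.3% to 92.9%, and MRG cows from 13.3% over 51.9% to 85.7% (36.5 points, SE 15.6, limma adjusted p = 0.0860). All 6 MSG cows were high there and only the MRG cows were spread out. The site before the start (16082867) had the same form, with 85.0% to 100% (median 94.7%) in MSG and 18.2% to 91.7% (median 70.8%) in MRG (29.5 points, SE 15.6, limma adjusted p = 0.103). At 16101553 the ranges were 81.8% to 94.4% (median 88.7%) and 41.2% to 83.3% (median 66.1%), a difference of 25.4 points (limma adjusted p = 0.125). At 16157534 they were 50% to 100% (median 100%) and 38.5% to 90% (median 53.6%), a difference of 29.1 points (limma adjusted p = 0.105).

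Fitted alone, the 42667 listed sites with no cow at 0 gave 31207 calls in limma (73.1%), and 4 of the 5 member sites among them passed. These were 16160825 (adjusted p = 0.0290), 16082867 (0.0381) and 16157534 (0.0392) of TLR3 and 107464779 of TLR4 (0.0397), while 16101553 did not (0.0537). The differences at these 5 sites were the same in both fits, and only the pooled variance and the adjustment changed. The share of members is close to that background.

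Further inside TLR3, sites of both directions lay side by side. The CpG at 16144905 was higher in MSG on both strands, and the CpG 89 bases on, at 16144994, was lower on both strands. MSG cow 4 stood at 86.7% and 100% on the strands of the first CpG and at 0 on both strands of the second. Over the 4 lower sites of this stretch MSG cows ran from 0% over 37.3% to 60.0% and MRG cows from 21.9% over 81.4% to 89.7%. The largest differences downward were at 16152306, with 19.0% ± 31.6 against 62.5% ± 37.2 (-43.51 points, SE 16.7, limma adjusted p = 0.0833), and at 16144995, with 44.3% ± 42.6 against 85.1% ± 33.6 (-40.82 points, SE 17.0, limma adjusted p = 0.0855). At 16148358, higher in MSG, the means were 51.8% ± 36.0 (n = 6) and 17.5% ± 39.1 (n = 5). The difference of 34.3 points (limma adjusted p = 0.0994) became 51.8 points without MRG cow 4.

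Neighbouring CpGs of opposite direction were present at 2 of the 3 pairs of member CpGs within 100 bases of each other, and at 10.2% of the 10812 such pairs over all listed sites. With 3 pairs no comparison was made. Both strands of a CpG were listed for 11 member CpGs, and the strands had the same direction at all 11. Within a cow, the median difference between strands was 5.13 points (5.56 over all 43073 listed CpGs with both strands), and the widest was 60.0 points, at a TLR4 CpG. Where at least 1 strand was at 0, both were in 38 of 40 cow values (95.0%, against 96.5% over all listed CpGs). The plot of one strand against the other shows these values.

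**Figure D4:**
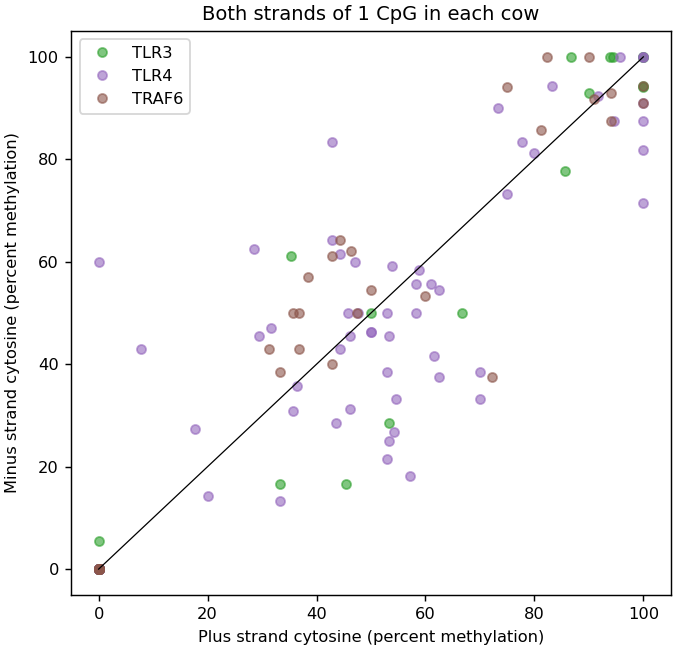
Percent methylation of the minus strand cytosine against the plus strand cytosine of the same CpG, for 11 CpGs of TLR3, TLR4 and TRAF6 and each cow (131 points, many of them at 0 on both strands), with the line of equal values. The points follow the line, with a median distance between strands of 5.13 points.

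Pearson's r of the means over sites was 0.632 for TLR3 and TLR4, 0.636 for TLR3 and TRAF6 and 0.639 for TLR4 and TRAF6 (12 cows). The points share their libraries, and all rows were chosen for a difference between the same groups. Each member was compared with 3618 genes, and only the highest correlations are given, as descriptions. The genes most like TLR4 were AKNA (r = 0.933), MYBPC1 (0.898) and MAP3K19 (0.896). AKNA is on the same chromosome, but its nearest site is 3370 kb away. Those most like TLR3 were UGT2B10 (0.944), OR6B1 (0.859) and REC114 (0.856), none on its chromosome.

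Of 57 other genes of the pathway, 32 had listed sites, 287 in all, 126 higher and 161 lower in MSG (43.9% higher). None of the 287 passed limma's adjusted test, 49 higher and 78 lower sites reached an unadjusted limma p under 0.05 (44.3%, background 51.9%), and none lay in a listed tile. Among the other receptors 4 of 25 sites were higher and 21 lower. TLR5, the flagellin receptor, had all 13 sites lower, at 35.2% ± 22.1 in MSG against 62.3% ± 32.1 in MRG (SD, n = 6 each), and TLR10 4 of 5. Co-receptors and chaperones were mixed, with 13 of 28 higher, and LY86, which binds the receptor CD180, had 11 of 20 higher. Of the adaptors, TICAM2, which links TLR4 to TICAM1, had all 7 sites lower (31.2% ± 38.3 against 68.6% ± 22.4), and TIRAP had 1 higher.

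Of the kinases and ubiquitin enzymes 48 of 81 sites were higher. MAP3K7, the kinase activated through TRAF6, had 24 of 29 higher, and TAB2, its binding partner, 12 of 20. Transcription factors had 25 of 33 higher, FOS 15 of 18 and IRF5 all 6. Inhibitors of the pathway had 77 of 112 lower, 60 of them among the 75 sites of TNFAIP3, a ubiquitin-editing enzyme that restrains TRAF6, while 14 of 17 sites of TOLLIP were higher.

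Markers of blood cell types also had listed sites. Higher in MSG were 96.2% of monocyte, 78.3% of T cell, 70.6% of NK cell and 66.7% of B cell marker sites. Over all listed sites the share was 52.7%. CD163 was the only monocyte marker of 4 with any, 25 of 26 higher. T cell markers had 72 of 92 higher, in 3 of 6 genes: LEF1 54 of 69, CD3E 14 of 18 and CD5 4 of 5. B cell markers had 4 of 6 sites higher. NK cell markers had 12 of 17, in NCR1 (11 of 14) and PRF1 (1 of 3), while 0 of 6 neutrophil markers had a listed site. These are counts of rows the authors chose, not levels of the cells, and their part in the results on TLR3, TLR4 and TRAF6 was not tested.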

How the data were processed

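Genomic DNA of blood from 12 cows was converted with TET2, T4-BGT and APOBEC3A, per the labels' protocols, so that unmethylated cytosines are read as thymines. A site where a cow carries thymine in its DNA would also read as unmethylated. The authors deposited percent methylation per cow for listed CpG cytosines and tiles, with their own difference, p-value and q-value, per the file headers. Tools named in the submitters' processing notes are ChIPseeker 1.32.1, fastp 0.23.1, DRAGEN and Bismark, without their roles, and the build is ARS-UCD1.2. The differential test is not given in the sources used here. In the authors' deposited table of sites every row has a difference of at least 25 points and a q-value up to 0.01, so a retest on the same cows is no independent evidence.

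Depth per site is unknown, so counting error has no interval here. The measures of precision are the SD over cows and limma's SE, which also draws on a variance pooled over all listed sites. The tile table's 36 columns of read counts were not used, since their names carry no cow. limma 3.58.1 (R 4.3.3) compared the groups at each site on percent values, two-sided, no covariate, with Benjamini-Hochberg adjustment over all 196275 sites and a threshold of 0.05. On simulated data with 200 of 196275 sites changed by 50 points, 85.5% of the changed sites reached an unadjusted p under 0.05. After adjustment 0% of them passed. Of the unchanged sites 5.09% had an unadjusted p under 0.05, and of the authors' listed sites 51.9% did. Recovery in a table with as large a share as the listed one was not tested. The other test was exact, permuting cows between groups. The alternatives were an arcsine square root scale, rows with all 12 cows, rows with no cow at 0, and each cow left out. Runs join sites less than 1 kb apart, and stretches less than 5 kb, a distance chosen after the values were seen.

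Sites were named by a rule: per gene, up to 3 inside it or within 3 kb of its start, the 2 largest differences in each direction, up to 3 without overlap between groups and up to 3 with no cow at 0. Single pairs of neighbouring sites were added after their values were seen. The members and the pathway and blood cell lists were chosen with earlier results of these data known. A table of ARS-UCD2.0 gene names held 56 of the 57 pathway symbols, all but TLR1, and gave no coordinates. No sequence was used.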

Additional observations from a re-analysis of the deposited data

Results flagged for a closer look

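In 5 of 42 groups of cows, taken from the 18 named sites and the 3 gene means, 1 cow stood apart from the rest of its group by Dixon's test. The test's rate of 5% holds for independent, normally distributed values. Percents that pile up at 0 and 100, in groups that reuse the same cows, are not such values. The count was therefore not compared with that rate. At TLR3 MRG cow 4 was at 16.7% at 16144995, where the other MRG cows were at 94.1% to 100%, and at 87.5% at 16148358, where the others were all at 0. Both sites lie in the same stretch of the first intron. At 16157534 of TLR3, MSG cow 1 was at 50% and the other MSG cows at 93.3% to 100%. MRG cow 3 stood apart at both lower sites of TRAF6, at 75.0% at 66961735 (others 93.8% to 100%) and at 44.4% at 66982280 (others 85.7% to 100%).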

How the results depend on the processing

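No member site passed the adjusted limma test on percent values, on the arcsine square root scale, among rows with all 12 cows, without any 1 cow, or by the exact permutation test. With rows with a cow at 0 left out, 4 passed. That fit and its adjustment used only the 42667 remaining rows, of which 73.1% passed. In that setting the sites higher in MSG were 100% of 4 for TLR3 and 0% of 1 for TLR4, and the mean of the site differences, MSG minus MRG, was 30.1 points for TLR3 (11.1 over all its sites) and -30.3 points for TLR4 (16.0 over all its sites). TRAF6 had no such site. Within 50 kb of the start the share for TLR4 was 50% of 4 sites and its mean difference was -0.183 points. The median over sites was 28.9 points for TLR3 and 31.2 for TLR4. Over runs of sites less than 1 kb apart the mean was 15 points for TLR3, 6.87 for TLR4 and 22.8 for TRAF6, against 11.1, 16.0 and 30.3 over sites. With a cow left out, the mean difference stayed between 8.65 and 14.3 points for TLR3, 13.7 and 18.4 for TLR4, and 24.3 and 38.7 for TRAF6, and no share changed. No paired analysis was possible because the replicate numbers only name the cows. No tile carried a member's symbol, so the alternatives for tiles were not run. Depth was not used, and its limit on single values was not measured.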

Other observations

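The same 4 cows, MSG cow 1 and MRG cows 2, 5 and 6, were the only ones at exactly 0 at 12 of the 57 sites, 9 of TRAF6 on chromosome 15 and 3 of TLR4 on chromosome 8. Over all listed sites this set of cows at 0 occurred at 47 sites (0.0239%). Of these, 26 lay within 113 kb of chromosome 15 (66890530 to 67003340), 15 of them annotated to RAG1, 9 to TRAF6 and 2 to PRR5L, and 21 lay elsewhere. The pattern was noticed in the data and was not tested.

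At 11 sites of TLR4, MRG cows 1, 2 and 5 were the only ones at 0, a set found at 603 listed sites (0.307%).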
